A study of Homo sapiens with 24 samples.

Results

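HMGA1, HMGA2, LIN28B, IGF2BP1, IGF2BP2 and IGF2BP3 are 6 genes grouped as oncofetal. The name is given to genes highly active in the embryo, less so in most adult tissues and often active again in tumours. How far each of the 6 fits it was not examined here. The 6 genes were picked by name, as genes named as regulated by the let-7 microRNAs, from the 16742 genes listed in at least 1 of 4 deposited mRNA tables. All 6 were found in the table of HCT116* 8/3 c7, and all but LIN28B were found in each of the other tables. The study asked how gaining a chromosome alters RNA levels in human cells, and sequenced 24 mRNA libraries, 3 from each of 8 cell lines. HCT116 is a near-diploid colon carcinoma line, and HCT116* is the same line carrying the histone fusion H2B-GFP. RPE1 is a diploid line from retinal pigment epithelium made immortal with hTERT, and RPE1* again carries H2B-GFP. HCT116 5/4 has 4 copies of chromosome 5 and was measured with HCT116. HCT116* 8/3 c7, a single clone with 3 copies of chromosome 8, was measured with HCT116*. RPE1 5/3 12/3 has 3 copies of chromosome 5 and, by spontaneous gain, 3 of chromosome 12, and was measured with RPE1. RPE1* 21/3 has 3 copies of chromosome 21 and was measured with RPE1*. Apart from HCT116 5/4, which came from another laboratory, and the spontaneous gain of chromosome 12, the chromosomes were brought in by microcell-mediated transfer. Each combination of gains is represented by 1 derived line, and chromosome 5 was gained in both HCT116 5/4 and RPE1 5/3 12/3.

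Each table gave, per gene, the authors' mean of normalised read counts over 6 libraries, 3 of an aneuploid line and 3 of its parental line. A line and its parental line therefore cannot be told apart in these means, which carry no spread, and no value below comes from a test. Levels of whole cell populations were measured, in which fewer cells of a type and less RNA per cell cannot be told apart. The libraries were sequenced to 25000000 single reads of 100 bases each, and the means of a table summed to between 18889290 and 23011803. The tables were normalised separately, so before values of 2 tables were set side by side each mean was expressed as a relative level, in parts of 1000000 (ppm) of its table's sum. The 10 most abundant genes took 5.44 to 6.05% of the sum in the HCT116 tables and 8.67 to 8.83% in the RPE1 tables.

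HMGA1 and HMGA2 are small chromatin proteins that bind the minor groove of AT-rich DNA through AT-hooks and bend it, and HMGA2 is a marker of embryonic and mesenchymal growth. LIN28B is an RNA-binding protein that blocks the maturation of let-7. IGF2BP1, IGF2BP2 and IGF2BP3 bind mRNAs such as those of IGF2, ACTB and MYC through KH and RRM domains and affect their stability, transport and translation. The let-7 family accumulates as cells differentiate and represses mRNAs whose 3′ UTR pairs with its seed, bases 2 to 8 of the microRNA, and LIN28B is at once an inhibitor and a target of it.

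All 9 mature let-7 family members read from the RefSeq table (let-7a to let-7g, let-7i and miR-98) carried the same seed. Those of let-7a and of miR-98 are shown because they share the seed, in capitals, and differ beyond it.
hsa-let-7a-5p: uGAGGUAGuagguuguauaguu
hsa-miR-98-5p: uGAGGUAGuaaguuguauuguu
The DNA letters that pair with the seed, CTACCTC, were searched on the transcript strand of 3′ UTRs of GRCh37, the assembly of the authors' hg19, with the GENCODE annotation lifted to it. With the longest 3′ UTR of each gene, LIN28B held 4 matches, IGF2BP1 4, HMGA1, IGF2BP2 and IGF2BP3 1 each, and HMGA2 0, while 10.6% of 19237 genes held at least 1. That rule took for HMGA2 an alternative transcript. In the canonical transcript of each gene, a choice made after seeing this, HMGA2 held 4 matches, the other 5 genes held the same numbers, and 9.75% of 19017 genes held at least 1. Of all genes 12, or 0.0631%, held 4 or more matches in the canonical transcript. Among genes with a 3′ UTR within 25% of the same length, at least 1 match was present for 22.9% beside LIN28B, 14.7% beside HMGA2 and 30.5% beside IGF2BP1. At least 4 matches, the number that each of these genes held, were present for 0.106%, 0.0361% and 0.315%. For HMGA1, IGF2BP2 and IGF2BP3, whose 3′ UTRs held 1 match, the shares with at least 1 match were 8.58%, 12.8% and 12.1%. A match is a description of the letters and not a binding site that was measured.

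The match nearest the stop codon of each gene is shown with the bases around it, 5′ to 3′ on the transcript strand, the match in capitals, to show the letters that the 6 transcripts have in common.
LIN28B at chr6:105526687-105526713, plus strand: acccggttgcaaagtCTACCTCatgca
HMGA1 at chr6:34213606-34213632, plus strand: tcctctgttcacaaaCTACCTCtggac
HMGA2 at chr12:66357078-66357104, plus strand: gccaacgttcgatttCTACCTCagcag
IGF2BP1 at chr17:47128423-47128449, plus strand: tgtgtgcgaagtaaaCTACCTCaaggt
IGF2BP2 at chr3:185362004-185362030, minus strand: aacacacagaagaagCTACCTCaggtg
IGF2BP3 at chr7:23351410-23351436, minus strand: tgcatttttactcaaCTACCTCaggta
Of the 15 matches in the 6 canonical transcripts, 8 were followed by an A, the base that lies opposite the first base of let-7. These 8 comprised 3 in IGF2BP1, 2 in LIN28B and 1 each in HMGA2, IGF2BP2 and IGF2BP3, and the single match of HMGA1 was followed by another base. The first match of HMGA2 began 21 bases and that of LIN28B 44 bases into the 3′ UTR, whereas that of IGF2BP1 began at base 1632.

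**Figure D1:**
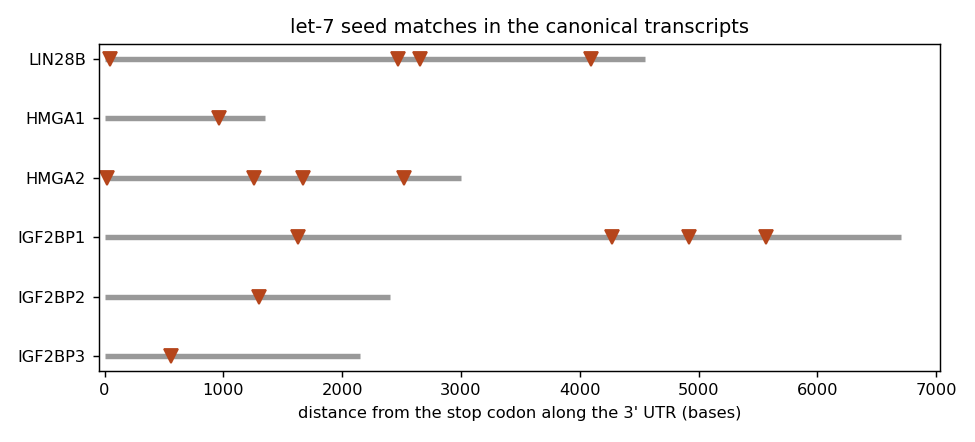
Positions of the let-7 seed matches (triangles) along the 3′ UTR of the canonical transcript (grey bars, to scale), in bases from the stop codon, for the 6 genes. LIN28B, HMGA2 and IGF2BP1 hold 4 matches each, and the other 3 genes hold 1 each.

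The levels separated into an abundant gene, HMGA1, a middle group of HMGA2, IGF2BP2 and IGF2BP3, the lower IGF2BP1, and LIN28B near the lower limit of listing. HMGA1 had means of 22570 in HCT116 5/4, 32518 in HCT116* 8/3 c7, 28612 in RPE1 5/3 12/3 and 20719 in RPE1* 21/3. It stood above 99.4 to 99.8% of the listed genes of every table. Its relative level was 1171 and 1621 ppm in the HCT116 tables and 1243 and 1097 ppm in the RPE1 tables, so that the tables of both parental lines overlapped.

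HMGA2 had means of 2368 in HCT116 5/4, 3965 in HCT116* 8/3 c7, 4227 in RPE1 5/3 12/3 and 2709 in RPE1* 21/3. In relative level, the HCT116 5/4 table, which pools that line with HCT116, was the lowest with 123 ppm. The HCT116* 8/3 c7 table, which pools that line with HCT116*, was the highest with 198 ppm. Both RPE1 tables lay between with 184 and 143 ppm. Per kilobase of the canonical transcript, the level of HMGA1 was 14.5 to 20.4 times that of HMGA2 in the 4 tables. This ratio rests on the transcript chosen: with the union of all basic exons, which is 13704 bases for HMGA2 against 4117 in the canonical transcript, it was 39.9 to 56.1.

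LIN28B was listed in HCT116* 8/3 c7 only, with a mean of 3.55, above 3.88% of the listed genes of that table. The lowest mean listed was 1.98 in that table and between 3.25 and 3.36 in the others. Absence from a table does not show a low level, since the abundant chromatin gene HMGB2, with a mean of 5048 in HCT116* 8/3 c7, was not listed in HCT116 5/4. Nothing is therefore said of the level of LIN28B in the other 3 tables. LIN28A, its paralogue, had means of 3.66 in HCT116 5/4 and 6.32 in HCT116* 8/3 c7 and was not listed in the RPE1 tables.

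IGF2BP1 had means of 10.6 in HCT116 5/4, 29.1 in HCT116* 8/3 c7, 414 in RPE1 5/3 12/3 and 349 in RPE1* 21/3. Both RPE1 tables, with 18.0 and 18.5 ppm, were far above both HCT116 tables, with 0.552 and 1.45 ppm. IGF2BP2 had means of 2794 and 4035 in HCT116 5/4 and HCT116* 8/3 c7 and, in the order RPE1 5/3 12/3 then RPE1* 21/3, of 1722 and 1525. Here the order was the opposite, with 145 and 201 ppm in the HCT116 tables and 74.8 and 80.7 ppm in the RPE1 tables. IGF2BP3 had means of 1373 and 1730 in HCT116 5/4 and HCT116* 8/3 c7 and, in the same order of the RPE1 tables, of 3876 and 2871. It followed IGF2BP1, with 71.2 and 86.3 ppm in the HCT116 tables against 168 and 152 ppm in the RPE1 tables. For IGF2BP3, 1521 exon bases are shared with MALSU1 on the opposite strand, and the methods name no strand setting for counting, so reads of the pair may not be told apart. HMGA1 has 8 annotated pseudogenes, none of which was listed, and the mapping kept 1 location per read, so its level is uncertain to that extent.

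**Figure D2:**
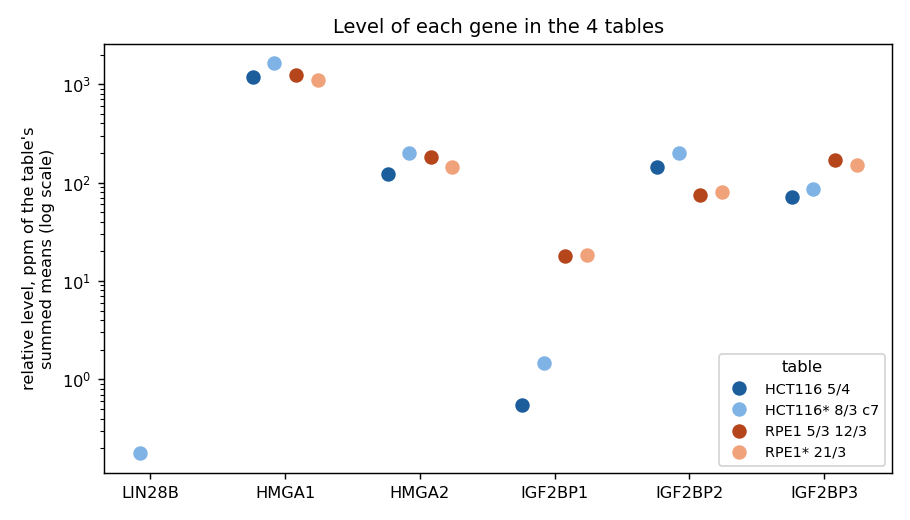
Authors' mean of each gene as relative level (ppm of the table's summed means), on a log scale, with 1 point per table over 6 libraries and no error available. HMGA1 lies at 1097 to 1621 in the 4 tables, and IGF2BP1 lies at 0.552 and 1.45 in the HCT116 tables and at 18.0 and 18.5 in the RPE1 tables.

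Each RPE1 table was set over each HCT116 table, which gave 4 pairs that reuse the same tables and are not independent. A gene was called when it differed at least 2-fold the same way in all 4 pairs, among the 12764 genes listed in all tables with an average of at least 10. These included 5 of the 6 genes. Called higher in the RPE1 tables were 1086 genes, or 8.51% of those tested, and 1 of the 5, IGF2BP1. Called higher in the HCT116 tables were 2251 genes, or 17.6%, and 0 of the 5. The median of all genes was itself at a log2 ratio of -0.37 on the scale of relative levels, so ratios are also given relative to that median gene. When the tables were scaled by the median ratio instead, 1546 genes were called higher in the RPE1 tables and 1455 in the HCT116 tables, and the share of calls higher in HCT116 moved from 67.5 to 48.5%.

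IGF2BP1 had a mean log2 ratio of 4.35 (range 3.63 to 5.07 over the 4 pairs), 20.4-fold higher in the RPE1 tables, and 1.45% of the genes tested had a higher ratio. Relative to the median gene its log2 ratio was 4.71. IGF2BP3 had a mean log2 ratio of 1.03 (range 0.82 to 1.24), and 1.39 relative to the median gene. It was not called on the scale of relative levels and was called with the median ratio, where its 4 pairs ranged from 1.18 to 1.60. IGF2BP2 had a mean log2 ratio of -1.14 (range -1.43 to -0.85), or -0.77 relative to the median gene, and was not called under either scaling.

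The HMGA genes showed no shared direction. HMGA1 had log2 ratios from -0.56 to 0.09 over the 4 pairs and HMGA2 from -0.46 to 0.58, with means of -0.24 and 0.06, which are 0.13 and 0.42 relative to the median gene. Both had pairs on either side of 0 on the scale of relative levels, as deposited and with the median ratio. Both RPE1 tables lay above both HCT116 tables, whatever the size, for IGF2BP1 and IGF2BP3 and for 26.1% of all genes tested. Both HCT116 tables lay above both RPE1 tables for IGF2BP2 and for 56.9% of all genes tested. With the median ratio the 3 genes kept these orders, and the shares of all genes were 40.3% with both RPE1 tables above and 40.0% with both HCT116 tables above.

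**Figure D3:**
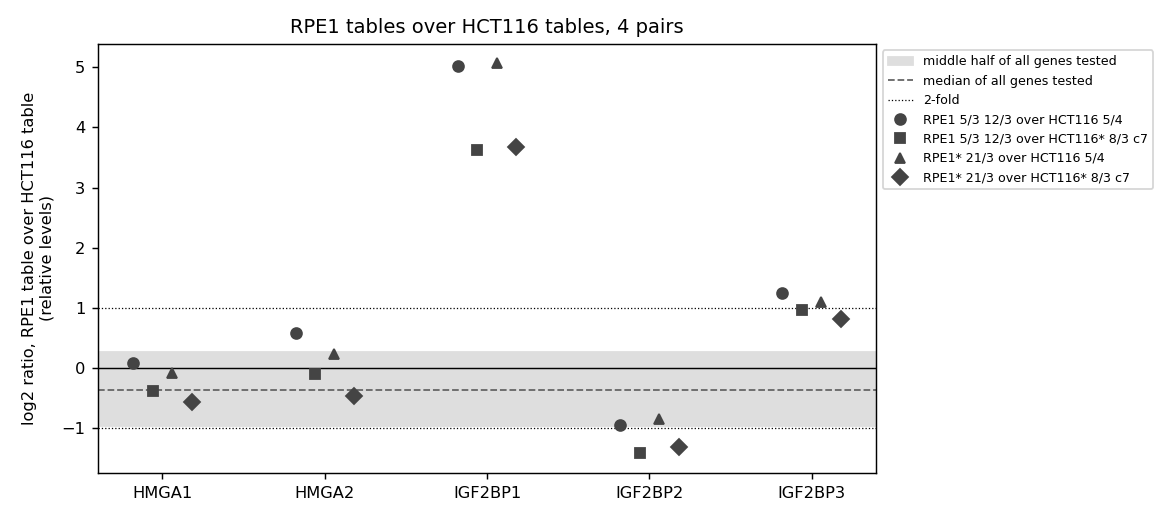
Log2 ratio of each RPE1 table over each HCT116 table (symbols, 4 pairs) for the 5 genes tested, on the scale of relative levels, with the interquartile range (grey band) and median (dashed line, -0.37) of all 12764 genes. IGF2BP1 lies at 3.63 to 5.07, IGF2BP3 near the 2-fold line and IGF2BP2 on the opposite side of 0.

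Within the IGF2BP family the leading member differed between the backgrounds. Per kilobase of the canonical transcript, IGF2BP2 made up 66.9% of the family's summed level in HCT116 5/4 and 69.8% in HCT116* 8/3 c7, against 29.7% in RPE1 5/3 12/3 and 33.4% in RPE1* 21/3. IGF2BP3 made up 32.9 and 30.0% in the HCT116 tables and 66.9 and 62.9% in the RPE1 tables. IGF2BP1 held the smallest share in each table, with 0.124 and 0.245% in the HCT116 tables and 3.47 and 3.72% in the RPE1 tables. The summed level of the family was 50.6 and 67.3 ppm per kilobase in the HCT116 tables and 58.9 and 56.5 in the RPE1 tables, so the tables of both backgrounds overlapped in the sum. The ratio of IGF2BP3 to IGF2BP2, taken within a table and so free of the scaling between tables, was 0.492 and 0.430 in the HCT116 tables and 2.26 and 1.89 in the RPE1 tables.

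**Figure D4:**
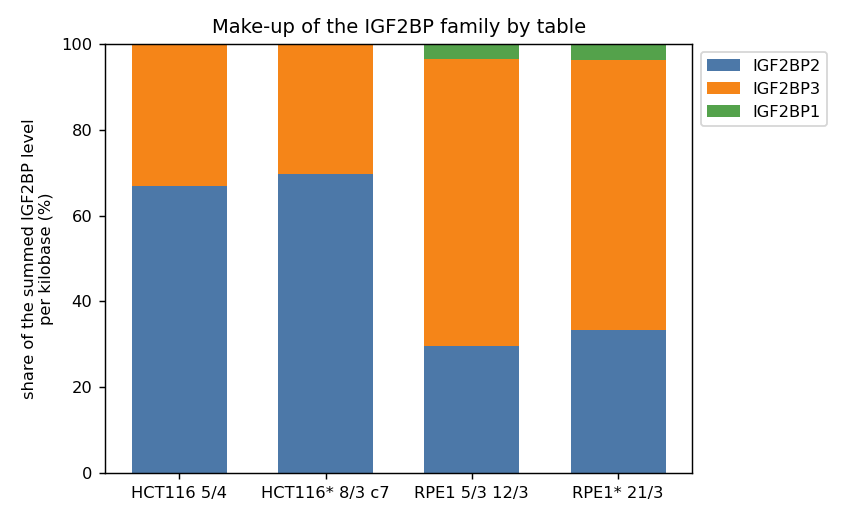
Share of IGF2BP2, IGF2BP3 and IGF2BP1 in the summed IGF2BP level per kilobase, in percent, for each table (stacked bars from 0 to 100%). IGF2BP2 holds 66.9 and 69.8% in the HCT116 tables and IGF2BP3 holds 66.9 and 62.9% in the RPE1 tables.

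The tables of one parental background were also set against each other. They differ in the gained chromosome and in the H2B-GFP of both pooled lines. The HCT116 tables also differ in the source of the parental cells, since the methods give separate origins for HCT116 and for the stock behind HCT116*. These differences cannot be told apart. In HCT116* 8/3 c7 over HCT116 5/4, 4.83% of the genes differed at least 2-fold, and 1 of the 5 genes did so. This was IGF2BP1, 2.63-fold higher in HCT116* 8/3 c7, at means of 29.1 and 10.6. HMGA2 was 1.61-fold, IGF2BP2 1.39-fold, HMGA1 1.38-fold and IGF2BP3 1.21-fold higher in the same table. All 5 ratios were above 1, while the median log2 ratio of all genes was 0.0046, and whether the 5 genes moved together was not tested. In RPE1 5/3 12/3 over RPE1* 21/3, 3.07% of the genes differed at least 2-fold, and 0 of the 5 genes did so. HMGA2 had the highest of the 5 ratios, 1.28-fold, followed by HMGA1 with 1.13-fold and IGF2BP3 with 1.11-fold, and IGF2BP1 and IGF2BP2 were at 0.973 and 0.927-fold.

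HMGA2 lies on chromosome 12 (chr12:66218240-66360071, plus strand, GRCh37), of which RPE1 5/3 12/3 has a further copy in 3 of the 6 libraries of its table. Its log2 ratio of RPE1 5/3 12/3 over RPE1* 21/3 was 0.36, beside a median of 0.28 (interquartile range 0.11 to 0.40) for the other 654 chromosome 12 genes. Of those genes, 217, or 33.2%, had a higher ratio, so HMGA2 lay within the range of its chromosome. On chromosomes other than 5, 12 and 21 the median was -0.03, and 6.55% of genes had a ratio above that of HMGA2. Chromosome 5, also gained in RPE1 5/3 12/3, had a median of 0.28 over 548 genes, and chromosome 21, gained in RPE1* 21/3, a median of -0.41 over 111 genes. The 16 listed genes within 2 Mb of HMGA2 had a median of 0.27 and ranged from -0.40 (GRIP1) to 0.43 (TBK1). RPSAP52, a pseudogene on the opposite strand within the HMGA2 locus, was at 0.23. In HCT116* 8/3 c7 over HCT116 5/4, lines not named as gaining chromosome 12, HMGA2 was at 0.69, beside a chromosome 12 median of 0.02. The part of copy number in the level of HMGA2 was not tested. The other genes lie on chromosomes that are not named as gained in any of the 4 lines. HMGA1 and LIN28B lie on chromosome 6, IGF2BP1 on chromosome 17, IGF2BP2 on chromosome 3 and IGF2BP3 on chromosome 7.

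**Figure D5:**
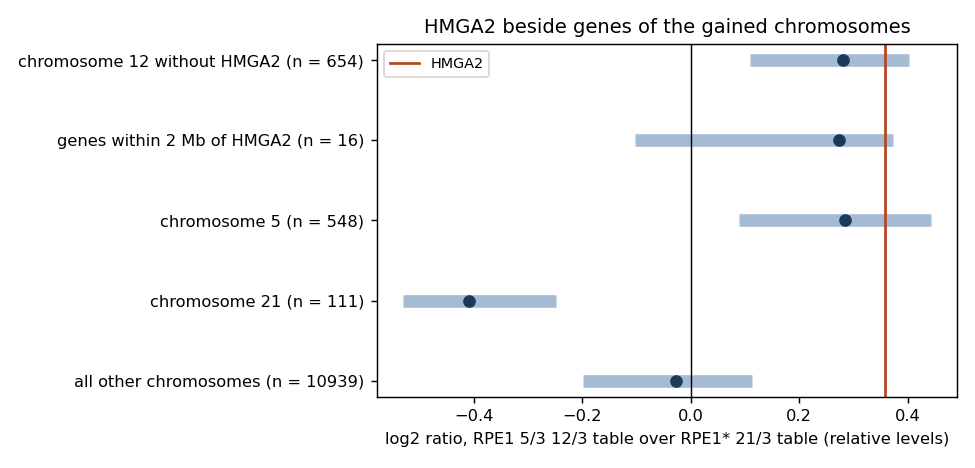
Log2 ratio of RPE1 5/3 12/3 over RPE1* 21/3 on the scale of relative levels, as median (points) and interquartile range (bars) of genes by chromosome, with HMGA2 as a vertical line at 0.36. HMGA2 falls inside the bar of the other chromosome 12 genes, and the bar of the chromosomes that neither line gained is centred at -0.03.

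Genes that act on let-7 were measured beside the 6 genes. Of 20 regulators, 19 were in at least 1 table and 18 were tested. Of these, 3 were called higher in the HCT116 tables, a share near the 17.6% of all genes, and 0 in the RPE1 tables, beside 8.51% of all genes. Their median log2 ratio was -0.45, beside -0.37 for all genes. The 3 were EIF2C2 (AGO2), the slicing Argonaute, at -1.62, and the silencing scaffolds TNRC6C at -1.74 and TNRC6B at -1.40. The highest ratio in the list was 0.23, of TNRC6A. ZCCHC11 (TUT4), which adds uridines to the let-7 precursor when LIN28 is bound, was at -0.47 with means from 962 to 1573. XPO5, the exporter of microRNA precursors, was at -1.26 and DICER1 at -0.39. Of 5 host transcripts of let-7 family members, 3 were tested and 0 were called in either direction, with a median log2 ratio of -0.60, beside -0.37 for all genes. MIRLET7BHG, the host transcript of let-7a-3 and let-7b, was higher in the RPE1 tables in all 4 pairs, with means of 62.6 and 32.2 in the HCT116 tables and 94.6 and 85.9 in the RPE1 tables. The other host transcripts tested, HUWE1 and WDR82, were more abundant and were lower in the RPE1 tables in all 4 pairs. Their mean log2 ratios were -0.64 and -0.60. LINC00478, the host of let-7c, was listed in the RPE1 tables only, with means of 14.4 and 11.0. Host transcripts are not the mature microRNAs, which were not analysed here.

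Of 20 other let-7 targets, 18 were tested, 2 were called higher in the RPE1 tables (8.51% of all genes) and 5 in the HCT116 tables (17.6% of all genes), with a median log2 ratio of -0.39, beside -0.37 for all genes. The 2 were THBS1, a secreted matrix protein, at 6.32 and PLAG1, an oncofetal transcription factor, at 4.62. The means of PLAG1 were 12.2 and 12.9 in the HCT116 tables and 361 and 299 in the RPE1 tables. The lowest were NR6A1 at -3.37 and E2F2 at -2.36. MYC, which lies on chromosome 8, was at -1.90 with means of 3759 and 7872 in HCT116 5/4 and HCT116* 8/3 c7 and of 1372 and 1741 in the RPE1 tables.

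Among 10 mRNAs known to be bound by IGF2BP proteins, 7 were tested, 2 were called higher in the HCT116 tables (17.6% of all genes) and 0 in the RPE1 tables (8.51% of all genes), with a median log2 ratio of 0.20, beside -0.37 for all genes. The 2 were MYC and PABPC1, the poly(A)-binding protein, at -1.32, and ACTB had the highest ratio with 1.28. IGF2 was listed in the HCT116 tables only, with means of 122 and 48.2. Of 9 other genes of high mobility group proteins, 7 were tested, 1 (HMGB3, at -1.92) was called higher in the HCT116 tables, where 17.6% of all genes were, and 0 in the RPE1 tables, where 8.51% were, and their median was -0.95, beside -0.37 for all genes. The ratios of HMGA1 and HMGA2 were above those of all 7, of which the highest was HMGN2 with -0.36.

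Colorectal epithelium and mesenchymal markers moved with the comparison of backgrounds, and retinal pigment epithelium markers went both ways. Of 10 colorectal epithelium markers, 8 were listed in at least 1 table, and their sum was 5393 to 6020 ppm in the HCT116 tables and 1396 to 1596 in the RPE1 tables. A marker not listed in a table adds nothing to its sum. KRT8, with 853 and 885 ppm, and KRT18, with 542 and 711 ppm, made up nearly all of the sum in the RPE1 tables. KRT19 had 956 ppm in both HCT116 tables and 0.433 and 0.326 ppm in the RPE1 tables. Of 3 tested, 2 were called higher in the HCT116 tables (17.6% of all genes) and 0 in the RPE1 tables (8.51% of all genes). CDH1 and CDX2 were listed in the HCT116 tables only, and VIL1 and CDX1 in none. All 7 mesenchymal and fibroblast markers were listed in the RPE1 tables, with sums of 24630 and 26517 ppm against 126 and 82.4 in the HCT116 tables. FN1, with 16004.6 and 19764.5 ppm, and VIM, with 7621.76 and 5828 ppm, made up most of the sum in the RPE1 tables. COL1A2 had 0.191 and 0.465 ppm there. Of 5 tested, 4 were called higher in the RPE1 tables (8.51% of all genes) and 0 in the HCT116 tables (17.6% of all genes). Of 10 retinal pigment epithelium markers, 7 were listed, with sums of 85.8 to 98.1 ppm in the RPE1 tables and 27.8 to 29.9 in the HCT116 tables. Most of the sum in the RPE1 tables came from MITF, with 62.5 and 59.5 ppm, and OTX2, with 31.1 and 22.2 ppm. Of the 4 retinal pigment epithelium markers tested, 2 were called higher in the RPE1 tables (8.51% of all genes). The other 2, RPE65 and PMEL, were called higher in the HCT116 tables (17.6% of all genes). LRAT had means of 118 and 161 in the HCT116 tables and 13.5 in RPE1* 21/3, and was not listed in RPE1 5/3 12/3. Of the defining ones, TYR and TYRP1 were listed in no table, and RPE65 had means of 10.4 and 4.58 in the RPE1 tables, below the 287 and 194 of the HCT116 tables. The part of these cell type differences in the levels of the 6 genes was not tested.

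For each gene, the genes with the most similar pattern were those with the smallest root mean square difference of centred log2 levels over the 4 tables, 4 points that leave many genes alike. IGF2BP1 had the fewest close neighbours, 5 of 12763 genes within 0.25, and the closest were GCNT2 at 0.074, a glycosyltransferase, and MMP19 at 0.193, a metalloproteinase. HMGA2 had 729 genes within 0.25, the closest being MLKL (0.049), SLC25A45 (0.049) and SNHG8 (0.061). IGF2BP3 had 718, led by ASPH (0.034), FRAT1 (0.034) and PSD3 (0.036). IGF2BP2 had 1817, led by RBBP8 (0.018), ZBTB25 (0.023) and MRPL4 (0.024), and HMGA1 had 2874, led by SF3B3 (0.031), C14orf93 (0.032) and NMNAT1 (0.037).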

How the data were processed

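RNA of 8 cell lines (3 libraries each) was sequenced on TruSeq libraries with 25000000 reads per library, per the labels. The authors removed adapters with cutadapt, mapped reads to hg19 with TopHat2 2.0.10, keeping 1 location per read, and counted exon reads per RefSeq gene with featureCounts 1.4.3. The deposited signal of each gene is the authors' mean of counts divided by DESeq2 size factors over the 6 libraries of a comparison. The 5 other deposited value columns (log2 fold change, its standard error, the test statistic, p-value and adjusted p-value) hold the authors' own comparison and were not used. The counts per library that the planned edgeR test needed were not analysed here, so no line was tested against its parental line. The labels do not say whether the 3 libraries of a line came from separate cultures.

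Relative levels are means divided by the table's sum, times 1000000 (Python 3.11.15, pandas 2.3.3, numpy 2.4.6). Genes listed in all 4 tables with an average of at least 10 were compared, and a call needed a 2-fold difference. Lengths were those of the canonical GENCODE transcript, and 92.9 to 93.9% of listed genes had one. Older symbols were matched through RefSeq synonyms, by name only. The 2-fold call was run on simulated tables with planted 4-fold changes, which checks the code and cannot show how accurate the calls are here. The 6 genes and all lists were chosen with earlier results of these data known. The genes named were the 6, the 3 nearest in pattern to each (1 of them, for IGF2BP1, is not reported here), and up to 4 per list at the highest and lowest level or ratio. Other genes named (LIN28A, ZCCHC11, DICER1, XPO5, MYC, the host transcripts, HMGB2, RPSAP52 and the markers) were chosen after their values were seen. Alternatives changed the scale, the filter, the fold, the transcript and the length.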

Additional observations from a re-analysis of the deposited data

How the results depend on the processing

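No paired analysis was possible because the tables held no values of single libraries. For the same reason the planned edgeR, DESeq2, low-count and leave-one-out alternatives for each line against its parental line were not run, and the planned description of the proteins was not run because no protein table was used here. With no replicate spread, a value was taken as moved when it changed by over 1.5-fold, and a count likewise. Of 152 recomputed values, 137 moved less than that, and no called ratio changed direction. Many of these values could not do otherwise, since the filter and the fold leave the ratio of a gene unchanged. A change of scale shifts all genes of a pair of tables equally. The number that stayed is therefore no measure of how stable the results are. With the median ratio over genes, 1546 of the 12764 genes tested were called higher in the RPE1 tables and 1455 in the HCT116 tables. Of the 5 genes, 2 were called in place of 1, the second being IGF2BP3, since that scale shifts every ratio of a pair of tables by the same amount. At 4-fold, 496 genes were called higher in the RPE1 tables and 778 in the HCT116 tables, with IGF2BP1 still among the first. At 1.5-fold, 1743 genes differed between the HCT116 tables, with 2 of the 5 genes among them (IGF2BP1 and HMGA2), and 1207 between the RPE1 tables. With the longest coding sequence LIN28B held 1 let-7 match, with a match to bases 2 to 7 in the longest 3′ UTR HMGA2 held 1 and IGF2BP2 3 (8 and 3 in the canonical transcript), and in the canonical transcript, chosen after seeing the data, HMGA2 held 4. The ratio of HMGA1 to HMGA2 per length with the union of exons, also added after seeing the data, was 56.1 in HCT116 5/4, 48.3 in HCT116* 8/3 c7, 39.9 in RPE1 5/3 12/3 and 45.0 in RPE1* 21/3. The low mean of IGF2BP1 in the HCT116 tables limits the precision of its fold, and the tables give no depth of single libraries.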
